A study of Mus musculus with 6 samples.

Results

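The pyruvate dehydrogenase complex and its regulators were followed at the RNA level in brown fat of the interscapular depot, a tissue that burns fuel to make heat. They were represented by 10 genes of the 54385 in the table, taken by name: the mitochondrial pyruvate carriers Mpc1 and Mpc2, the subunits Pdha1, Pdhb and Dlat, the kinases Pdk1, Pdk2, Pdk3 and Pdk4, and the phosphatase Pdp1. All 10 were present and all 10 passed the filter on low counts. The 3 ADCY3∆AT libraries came from C57BL/6N mice described as knockouts of Adcy3-AT, and the 3 wild-type (WT) libraries from C57BL/6N mice labelled wt/wt. Every mouse in both groups was 20 weeks old, had been moved from chow to a high-fat diet (HFD, D12492) at an age of 8 weeks and kept on it for 12 weeks, and had spent 24 h at 4 °C. The series is titled for a truncated, cold-induced adenylyl cyclase 3, so the contrast asks what differs in cold brown fat when that form is missing. The labels do not state how the deletion was made or in which cells it acts. The labels number the replicates without saying that each is a separate animal, so every p-value measures the spread between these libraries, which may be partly technical. The design text names the depot inguinal and each sample label names it interscapular, which is followed here.

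Pyruvate made by glycolysis enters mitochondria through a carrier built from MPC1 and MPC2. Inside, the pyruvate dehydrogenase complex turns it into acetyl-CoA, which feeds the citric acid cycle and, after export as citrate, fatty acid synthesis. The E1 enzyme (PDHA1 with PDHB) removes carbon dioxide, the E2 core (DLAT) hands the acetyl group to coenzyme A on a lipoyl arm, and E3 (DLD) reoxidises that arm. The pyruvate dehydrogenase kinases switch E1 off by adding phosphate to serines of PDHA1, and the phosphatases PDP1 and PDP2 switch it back on. PDK4 is the kinase isoenzyme best known for its induction by fasting and by fatty acids, through PPAR receptors and FOXO factors, and it spares glucose when fat is burned. PDK1 is best known as a target of the hypoxia factor HIF1, PDK2 is widely expressed, and PDK3 is a minor form in most tissues.

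The kinases modify 3 serines of PDHA1. The bases that encode sites 1 and 2 are shown because all 4 kinases act on these serines; site 3, best known as a target of PDK1, lies earlier in the protein and outside the stretch. The stretch covers bases 865 to 906 of the coding sequence of Pdha1 in the GENCODE M21 transcript (GRCm38, X chromosome, minus strand), with the codons of serine 293 (site 1) and serine 300 (site 2) in capitals; the reading frame holds 390 codons before its stop.
Pdha1 sites 1 and 2: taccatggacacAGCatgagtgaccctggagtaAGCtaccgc

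The promoters of Pdk4 and Pdk1 are shown because these were the members with the largest positive fold changes. The sequences are from RefSeq (GRCm38.p6) and end at the first base outside every annotated transcript, at chr6:5496310-5496528 on the minus strand for Pdk4 and at chr2:71872974-71873223 on the plus strand for Pdk1. Capitals mark the CCAAT box of Pdk4, which reads on the opposite strand, and the GC box (GGGCGG) of Pdk1.
Pdk4 promoter: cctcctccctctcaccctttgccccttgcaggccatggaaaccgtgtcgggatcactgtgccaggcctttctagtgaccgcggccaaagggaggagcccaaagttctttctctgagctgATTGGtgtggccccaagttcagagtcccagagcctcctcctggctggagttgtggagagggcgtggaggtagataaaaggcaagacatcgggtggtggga
Pdk1 promoter: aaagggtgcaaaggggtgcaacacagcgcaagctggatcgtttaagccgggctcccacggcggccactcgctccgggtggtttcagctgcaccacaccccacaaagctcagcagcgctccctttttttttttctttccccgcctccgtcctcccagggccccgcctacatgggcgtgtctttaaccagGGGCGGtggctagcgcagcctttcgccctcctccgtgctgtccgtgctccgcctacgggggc

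Promoter windows of the 250 bases before a transcription start were available for 9 members, with 12 starts in all. Both strands were searched for exact letters, and motifs could overlap. The GC box was found in 32.7% of all 32841 windows and CCAAT in 33.9%. The Pdk4 window held CCAAT 131 bases before the RefSeq start and no GC box, and the upstream Pdk1 window held a GC box 62 bases before the start and no CCAAT. None of the 12 windows matched the FOXO motif TGTTTAC (3.17% of all windows), the ERR motif TCAAGGTCA (0.387%), the cyclic AMP response element TGACGTCA (1.55%) or TATAAA (12.4%). The nuclear receptor motif AGGTCA (14% of all windows) matched in 1 window of Mpc1. The letters ACGTG (16.6%), a form of the HIF core, matched in windows of Pdk2, Pdhb and Pdk3. The form GCGTG was not searched, and it is present in the printed promoters of both Pdk4 and Pdk1. The shorter cyclic AMP motif TGACG (17.8%) matched in windows of Dlat and Pdhb. These matches describe letters only.

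Library totals ranged from 44826777 to 54933588 estimated counts. The targeted gene was lower in every ADCY3∆AT library, where Adcy3 had 348.5, 341.9 and 505.6 CPM (counts per 1 000 000, TMM-scaled) against 676.9, 727.8 and 651.9 CPM in WT, but it did not pass edgeR's quasi-likelihood test over all genes (log2 fold change -0.78 ± 0.14, SE, adjusted p = 0.158). It passed in DESeq2 (adjusted p = 4.01e-07). ADCY3∆AT replicate 3 lay closest to WT for Adcy3, and across all tested genes its log2 CPM correlated with WT replicates 1 and 2 at r = 0.9849, as with ADCY3∆AT replicate 2, and with ADCY3∆AT replicate 1 at 0.98. Without it edgeR called 66 genes in place of 1, and no member. All 12 brown adipocyte markers were detected, and their summed level was 19800, 19720 and 19330 CPM in ADCY3∆AT and 20420, 20330 and 20330 CPM in WT. Fold changes were positive for 4 of them and negative for 8, and 0 passed in edgeR. Groups did not overlap for 4 lower (8.83% of all tested genes) and 1 higher (7.68%). Elovl3, a fatty acid elongase, had 292.5, 331.9 and 376.2 CPM in ADCY3∆AT and 497.7, 421.5 and 386.0 CPM in WT (log2 fold change -0.38 ± 0.11, SE, edgeR adjusted p = 0.305, DESeq2 adjusted p = 0.0315). Dio2, which activates thyroid hormone, had 309.7, 328.3 and 616.4 CPM in ADCY3∆AT and 669.8, 816.2 and 623.1 CPM in WT (-0.75 ± 0.25, edgeR adjusted p = 0.334, DESeq2 adjusted p = 0.519). Elovl3 and Dio2 had the largest negative fold changes of this list. Adrb3 had the largest positive one, with 229.1, 227.3 and 231.8 CPM in ADCY3∆AT and 220.9, 202.7 and 187.3 CPM in WT (0.17 ± 0.07, edgeR adjusted p = 0.4). Ucp1 had -0.055 ± 0.042 (edgeR adjusted p = 0.674). All 30 skeletal muscle markers were lower in ADCY3∆AT, with a summed level of 260.3, 665.0 and 979.2 CPM in ADCY3∆AT and 2771, 1875 and 4889 CPM in WT. Of these, Ckm, Myh7, Ryr1, Pvalb, Myoz1 and Cacna1s were at 0 in ADCY3∆AT replicate 1 only. In that library Mb, whose groups overlapped, gave 223.3 of the 260.3 CPM in the sum. Skeletal muscle also expresses the complex, and the part of muscle RNA in the values below was not tested. Summed macrophage markers were 163.4, 243.9 and 232.6 CPM in ADCY3∆AT and 224.8, 141.3 and 164.0 CPM in WT, summed endothelial markers 1220 to 1309 CPM in ADCY3∆AT and 1138 to 1209 CPM in WT, summed fibroblast markers 489.9 to 533.4 CPM in ADCY3∆AT and 413.9 to 506.7 CPM in WT, and summed Schwann cell and nerve markers 228.8 to 247.4 CPM in ADCY3∆AT and 244.8 to 254.8 CPM in WT. Fold changes were positive for 9 of 10 macrophage, 8 of 10 endothelial and 9 of 10 fibroblast markers and negative for 7 of 8 tested Schwann cell and nerve markers, of which Th and Gap43 were at 0 in some libraries and not tested. In tissue samples of this kind, fewer cells of a type and less RNA per cell cannot be told apart.

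No member passed the threshold of adjusted p 0.05 in edgeR or in DESeq2. The background was 0.00552% of 18114 tested genes called in edgeR (1 gene, lower) and 1.22% of 18786 in DESeq2 (0.474% higher and 0.751% lower). Among the members, 5 had a positive and 5 a negative fold change, with a median log2 fold change of -0.01, against 0.00 over all tested genes. Adjusted p-values in edgeR ran from 0.333 (Pdk1) to 0.946 (Pdha1). At an unadjusted p under 0.05 there were 2 members, Pdk1 and Pdk4, both higher in ADCY3∆AT, beside 11% of all tested genes in either direction, 5.23% higher and 5.78% lower. The groups did not overlap for 1 member, Pdk1, which was higher (16.5% of all genes did not overlap, 7.68% higher and 8.83% lower). These counts are too close to the background to be read as a result about the members. The typical fold change was also small, with a median absolute log2 value of 0.07 over the members and 0.12 over all tested genes. These medians are not matched for expression level. Only 11513 of the 18114 tested genes had a mean log2 CPM at or above that of the lowest member.

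**Figure D1:**
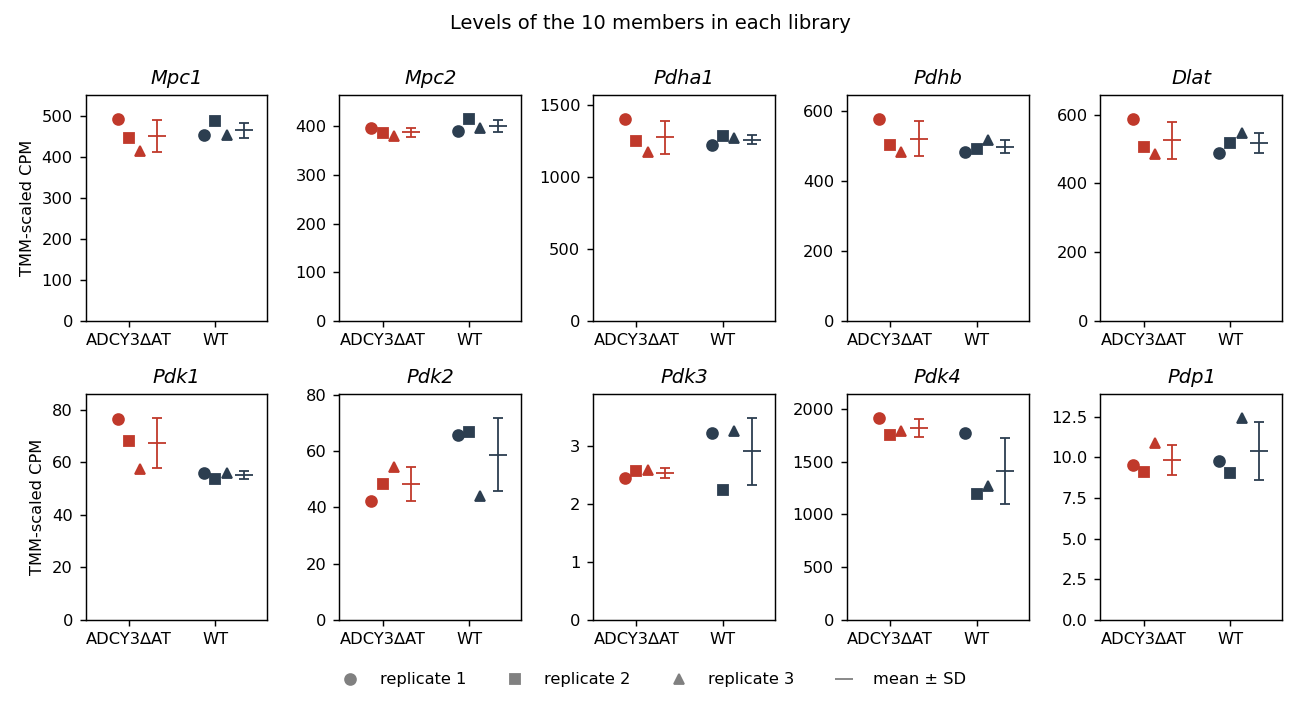
TMM-scaled CPM of each member in the 3 ADCY3∆AT libraries (red) and the 3 WT libraries (dark), with the mean and SD beside them; every axis starts at 0. The carriers and subunits lie at nearly the same height in both genotypes, Pdk1 is higher in each ADCY3∆AT library, and Pdk4 has 2 low WT libraries, replicates 2 and 3.

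The pyruvate carriers did not differ detectably between genotypes. Mpc1 (ENSMUSG00000023861, chromosome 17, 8282904 to 8297661, plus strand, GRCm38), one of the carrier's subunits, had 491.2, 445.6 and 413.5 CPM in ADCY3∆AT and 453.8, 486.0 and 452.2 CPM in WT. The ADCY3∆AT libraries spanned the whole WT range and reached both below and above it. Its log2 fold change was -0.04 ± 0.07 (SE, edgeR adjusted p = 0.86), and the 95% interval of the fold ran from 0.867 to 1.09. Mpc2 (ENSMUSG00000026568, chromosome 1, 165460637 to 165481214, plus strand), its partner, had 397.5, 387.1 and 379.4 CPM in ADCY3∆AT and 391.3, 414.8 and 396.5 CPM in WT. The ranges overlapped, and the libraries were close together, with a coefficient of variation of 2.34% in ADCY3∆AT, the lowest of any member there, and 3.08% in WT. Its log2 fold change was -0.05 ± 0.05 (edgeR adjusted p = 0.772), with a 95% interval of the fold from 0.894 to 1.05. Per kilobase of exon, Mpc1 was 4.36, 4.06 and 3.84 times Mpc2 in ADCY3∆AT and 4.09, 4.13 and 4.02 times in WT. A transcript that overlaps Mpc2 on the same strand, Gm37860, had a count equal to 0.878% of that of Mpc2. The count of 4930506C21Rik, annotated on the opposite strand, was 0.085% of that of Mpc1.

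Nor did the catalytic subunits differ detectably. Pdha1 (ENSMUSG00000031299, X chromosome, 160122209 to 160138413, minus strand), the E1 alpha subunit that carries the serines printed above, had 1397.8, 1249.6 and 1169.5 CPM in ADCY3∆AT and 1221.8, 1279.2 and 1265.9 CPM in WT. The ADCY3∆AT libraries lay on both sides of the narrow WT range and within it, and Map3k15, which overlaps on the opposite strand, had 0.324% of the count. Its log2 fold change was 0.02 ± 0.07 (SE, edgeR adjusted p = 0.946), with a 95% interval of the fold from 0.907 to 1.13. Pdhb (ENSMUSG00000021748, chromosome 14, 8165996 to 8173025, minus strand), the E1 beta subunit, had 576.0, 503.1 and 482.4 CPM in ADCY3∆AT and 481.6, 492.3 and 517.7 CPM in WT. ADCY3∆AT replicate 1 was the highest library and the other ADCY3∆AT libraries lay within the WT range, giving a log2 fold change of 0.07 ± 0.07 (edgeR adjusted p = 0.783, fold from 0.932 to 1.18). Dlat (ENSMUSG00000000168, chromosome 9, 50634633 to 50659780, minus strand), the E2 core, had 586.5, 505.7 and 484.6 CPM in ADCY3∆AT and 486.9, 517.5 and 546.9 CPM in WT. Here too ADCY3∆AT replicate 1 was highest and the groups overlapped, with a log2 fold change of 0.02 ± 0.08 (edgeR adjusted p = 0.944, fold from 0.894 to 1.16). Without ADCY3∆AT replicate 1 the fold changes of these subunits turned slightly negative, at -0.055 for Pdha1, -0.014 for Pdhb and -0.063 for Dlat on the log2 scale.

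Ratios between the subunits varied less than their levels did in ADCY3∆AT. Per kilobase, Pdha1 was 2.51, 2.57 and 2.51 times Pdhb in ADCY3∆AT and 2.62, 2.69 and 2.53 times Pdhb in WT. Dlat was 0.805, 0.794 and 0.794 times Pdhb in ADCY3∆AT and 0.799, 0.831 and 0.835 times Pdhb in WT. Both sets of ratios overlapped between genotypes. The coefficient of variation of Pdha1, Pdhb and Dlat was 9.1%, 9.45% and 10.2% in ADCY3∆AT, against 2.39%, 3.73% and 5.8% in WT, and replicate 1 was the highest ADCY3∆AT library for all 3 subunits and for Mpc1 and Mpc2.

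The 4 kinases had larger absolute fold changes than the other members, in both directions, and none passed the test. Pdk4 (ENSMUSG00000019577, chromosome 6, 5483351 to 5496309, minus strand) was by far the most abundant kinase, with 1911, 1751 and 1789.2 CPM in ADCY3∆AT and 1768.4, 1193.9 and 1273.3 CPM in WT. WT replicate 1 lay among the ADCY3∆AT libraries, while WT replicates 2 and 3 lay well below all of them. The means were 1817 ± 83.6 CPM in ADCY3∆AT and 1412 ± 311 CPM in WT (SD, n = 3 each), a 1.29-fold difference with a 95% interval from 1.04 to 1.59. On the log2 scale this was 0.36 ± 0.13 (SE), with an unadjusted p of 0.0257 and an adjusted p of 0.382 in edgeR, and an adjusted p of 0.123 in DESeq2. Its size depended on single WT libraries: without WT replicate 1 the log2 fold change was 0.56 (edgeR adjusted p = 0.184), and without WT replicate 2 it was 0.26 (adjusted p = 0.734). Without ADCY3∆AT replicate 3 it was 0.375 (adjusted p = 0.336).

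Pdk1 (ENSMUSG00000006494, chromosome 2, 71873224 to 71903858, plus strand) was the only member whose groups did not overlap. It had 76.32, 67.96 and 57.48 CPM in ADCY3∆AT and 56.02, 53.43 and 55.73 CPM in WT. The WT libraries were tightly placed, and ADCY3∆AT replicate 3 was only just above them. The means were 67.3 ± 9.44 CPM in ADCY3∆AT and 55.1 ± 1.42 CPM in WT (SD, n = 3 each), a 1.22-fold difference with a 95% interval from 1.05 to 1.42. The log2 fold change was 0.29 ± 0.09 (SE), with an unadjusted p of 0.0151 and an adjusted p of 0.333 in edgeR, and an adjusted p of 0.178 in DESeq2. It was 0.39 without ADCY3∆AT replicate 3 (adjusted p = 0.0691) and 0.19 without ADCY3∆AT replicate 1 (adjusted p = 0.529).

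Pdk2 (ENSMUSG00000038967, chromosome 11, 95026258 to 95041354, minus strand) lay lower on average in ADCY3∆AT, and the groups overlapped. It had 42.14, 48.32 and 54.38 CPM in ADCY3∆AT and 65.6, 66.83 and 43.9 CPM in WT. WT replicates 1 and 2 were the highest libraries, and WT replicate 3 was among the lowest. The log2 fold change was -0.28 ± 0.16 (SE, edgeR adjusted p = 0.561), with a 95% interval of the fold from 0.638 to 1.06. Without WT replicate 3 it was -0.46 (adjusted p = 0.36), and without WT replicate 2 it was -0.18 (adjusted p = 0.868). WT replicate 3 also had the highest sum of muscle markers, 4889 CPM. ADCY3∆AT replicate 1 had the lowest sum, 260.3 CPM, and the lowest Pdk2. A relation of Pdk2 to muscle RNA was not tested.

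Pdk3 (ENSMUSG00000035232, X chromosome, 93764607 to 93832201, minus strand) was the least abundant member. It had 2.45, 2.58 and 2.6 CPM in ADCY3∆AT and 3.23, 2.25 and 3.26 CPM in WT. The ADCY3∆AT libraries lay between the lowest WT library and the other WT libraries, so the groups overlapped, with a log2 fold change of -0.20 ± 0.18 (SE, edgeR adjusted p = 0.728, fold from 0.658 to 1.16). Pdp1 (ENSMUSG00000049225, chromosome 4, 11958184 to 11966452, minus strand), the calcium-stimulated phosphatase that removes the phosphate, was low as well. It had 9.51, 9.1 and 10.89 CPM in ADCY3∆AT and 9.79, 9.02 and 12.4 CPM in WT. The groups overlapped, and the highest library of each was its replicate 3. The log2 fold change was -0.08 ± 0.13 (edgeR adjusted p = 0.86, fold from 0.768 to 1.16).

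**Figure D2:**
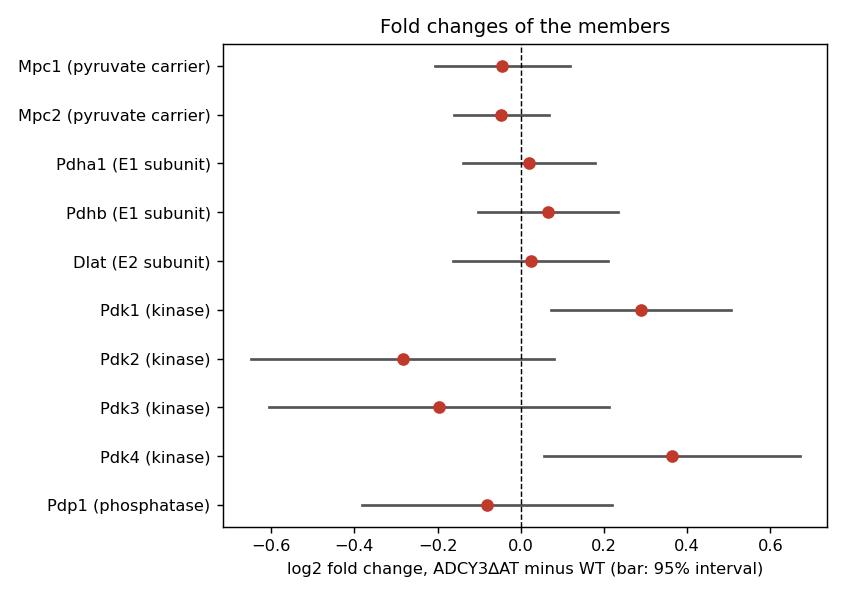
Log2 fold change of each member, ADCY3∆AT minus WT, from edgeR, with its unadjusted 95% interval. The intervals of Pdk1 and Pdk4 lie above 0, those of the other members span 0, and no member passed after adjustment over all genes.

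To compare members with each other, CPM was divided by the length of each gene's exons in kilobases, counting the union of all annotated exons. On this scale Pdk4 had 517.5 ± 23.8 CPM per kb in ADCY3∆AT and 402.1 ± 88.7 in WT (SD, n = 3 each). Pdha1, the target of the kinases, had 340.7 ± 31.0 in ADCY3∆AT and 336.3 ± 8.05 in WT. In ADCY3∆AT the order continued with Mpc1 (216.2 ± 18.8), Pdhb (134.8 ± 12.7), Dlat (107.6 ± 11.0), Mpc2 (52.8 ± 1.23), Pdk2 (15.3 ± 1.94), Pdk1 (8.65 ± 1.21), Pdp1 (2.18 ± 0.208) and Pdk3 (0.994 ± 0.0326). The order of means was the same in WT, where Mpc1 had 222.9 ± 9.15 CPM per kb, Pdk2 18.6 ± 4.08, Pdk1 7.08 ± 0.182, Pdp1 2.31 ± 0.394 and Pdk3 1.14 ± 0.224. In ADCY3∆AT all neighbours in this order were apart in every library, and in WT only Pdk4 and Pdha1 overlapped.

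The top of that order depended on which length was used. With the length of the longest annotated transcript, Mpc1 had 468.4 ± 40.6 CPM per kb in ADCY3∆AT and 482.8 ± 19.8 in WT (SD, n = 3 each), because its longest transcript has 961 bases and the union of its exons 2082. Pdk4 had 521.5 ± 24.0 in ADCY3∆AT and 405.2 ± 89.4 in WT on that scale, and Pdha1 had 446.7 ± 40.7 in ADCY3∆AT and 440.9 ± 10.5 in WT. In ADCY3∆AT Pdk4 then overlapped with Mpc1, and Mpc1 with Pdha1. In WT the mean of Pdk4 came after those of Mpc1 and Pdha1, and overlapped with Pdha1. From Pdhb downward the order was unchanged under both lengths, in both genotypes.

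**Figure D3:**
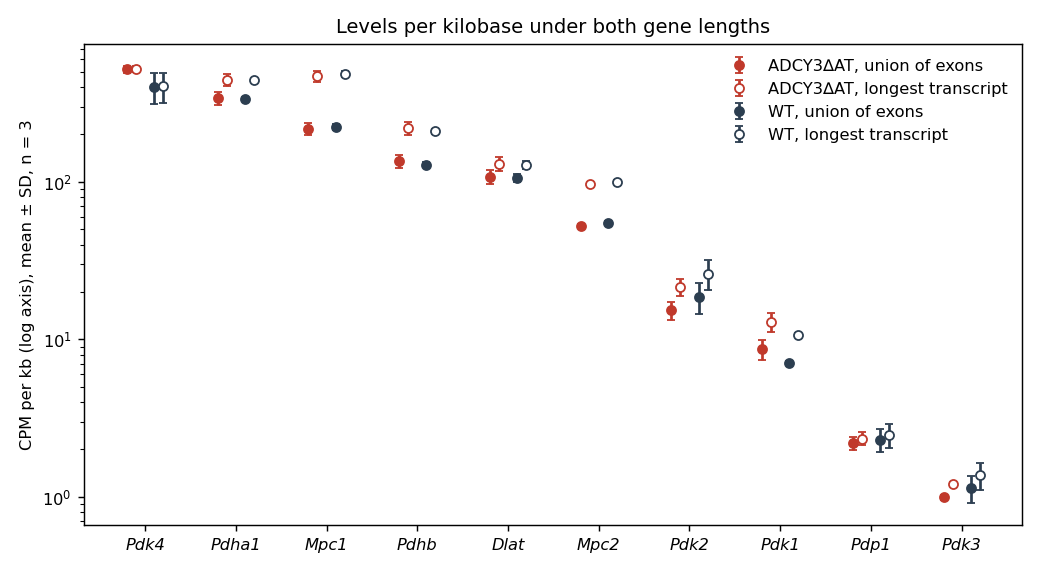
CPM per kilobase (log axis, mean ± SD of 3 libraries) for ADCY3∆AT (red, left of each pair) and WT (dark), with the union of exons (filled) and the longest transcript (open) as length. Pdk4 stands with Pdha1 and Mpc1 at the top, and Pdk2, Pdk1, Pdp1 and Pdk3 form the low end under both lengths.

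Pdk4 made up nearly all kinase transcripts in every library. Its share of the summed per-kilobase level of all 4 kinases was 95.8%, 95.2% and 95.2% in ADCY3∆AT and 94.5%, 92.2% and 94.2% in WT. Each ADCY3∆AT library was above each WT library, although the difference is narrow. The share of Pdk2 was 2.34%, 2.92% and 3.21% in ADCY3∆AT and 3.89%, 5.73% and 3.60% in WT, each ADCY3∆AT library below each WT library. The share of Pdk3 was 0.168%, 0.192% and 0.190% in ADCY3∆AT and 0.236%, 0.238% and 0.331% in WT, also without overlap, and the share of Pdk1 was 1.73%, 1.67% and 1.38% in ADCY3∆AT and 1.35%, 1.86% and 1.86% in WT, with overlap. Set against each other, Pdk4 stood at 40.9, 32.7 and 29.6 times Pdk2 in ADCY3∆AT and at 24.3, 16.1 and 26.1 times Pdk2 in WT. The shares are parts of 1 sum that is mostly Pdk4, so they are not separate results, and a higher Pdk4 lowers the other shares. In CPM the groups of Pdk2, Pdk3 and Pdk4 each overlapped. These shares are within-library quantities that do not depend on the scaling between libraries. They are given as a description without a test, and no background over all genes was computed for them.

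The ratios of summed kinase level to Pdp1 and to Pdha1 overlapped between genotypes. Pdp2, the other phosphatase, was left out of these ratios, so they do not give the balance of kinase to all phosphatase RNA. In mean CPM Pdp2 was the more abundant, at 146.8 in ADCY3∆AT and 171.2 in WT, against 9.83 and 10.4 for Pdp1. The summed kinase level was 269.3, 259.3 and 221.5 times that of Pdp1 in ADCY3∆AT and 245.4, 184.4 and 139.9 times in WT. WT replicate 1 lay among the ADCY3∆AT libraries. Against Pdha1 the summed kinase level was 1.52, 1.57 and 1.71 times as high in ADCY3∆AT and 1.63, 1.08 and 1.14 times in WT, and again only WT replicates 2 and 3 stood lower. RNA ratios of this kind do not give the amounts or the activity of the proteins.

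The remaining genes of the complex were looked up from a list. Of its 6 genes, 4 were tested, Pdha2 of testis was at 0 in all 6 libraries, and Mpc1l was not matched. All 4 had a negative fold change, 0 passed in edgeR (background 0.00552%) and 0 had an unadjusted p under 0.05. Pdp2, the other phosphatase, had 133.4, 131.5 and 175.5 CPM in ADCY3∆AT and 171.7, 187.3 and 154.5 CPM in WT, and a log2 fold change of -0.22 ± 0.12 (SE, edgeR adjusted p = 0.543). ADCY3∆AT replicates 1 and 2 were the lowest libraries and replicate 3 lay within WT. Dld, the E3 enzyme, had 568.7 ± 16.8 CPM in ADCY3∆AT and 606.9 ± 33.2 CPM in WT (SD, n = 3 each). Its log2 fold change was -0.09 ± 0.06 (edgeR adjusted p = 0.598). Pdhx, which anchors E3 to the core, had 162.7, 162.2 and 159.0 CPM in ADCY3∆AT and 167.3, 170.1 and 166.3 CPM in WT. Its groups did not overlap, although the log2 fold change was only -0.06 ± 0.05 (edgeR adjusted p = 0.691).

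The sister complexes that share this architecture, the 2-oxoglutarate and branched-chain dehydrogenases with their kinase and phosphatase, were tested for all 9 listed genes. Of these, 1 had a positive and 8 a negative fold change, with a median log2 value of -0.07 against 0.00 over all genes, 0 passed in edgeR, and 1 higher (background 5.23%) and 1 lower (5.78%) had an unadjusted p under 0.05. Dbt, the E2 core of the branched-chain complex, had 222.1, 225.0 and 259.8 CPM in ADCY3∆AT and 270.9, 270.9 and 261.3 CPM in WT, each ADCY3∆AT library below each WT library (log2 fold change -0.18 ± 0.07, SE, edgeR adjusted p = 0.387). Bckdk, the kinase of that complex, was the gene with a positive fold change (0.14 ± 0.06, adjusted p = 0.441), with 83.2 ± 4.41 CPM in ADCY3∆AT and 75.8 ± 2.42 CPM in WT (SD, n = 3 each) and no overlap. Ppm1k, its phosphatase, had -0.37 ± 0.20 (adjusted p = 0.55) with overlapping groups, and ADCY3∆AT replicate 3, at 93.9 CPM, stood far from the other ADCY3∆AT libraries at 53.2 and 56.0 CPM.

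Genes that make the lipoyl and thiamine cofactors of the complex had fold changes in both directions. Of 17 listed genes, 15 were tested, 10 with a positive and 5 with a negative fold change and a median log2 value of 0.03, and 0 passed in edgeR or had an unadjusted p under 0.05. Lias, lipoic acid synthetase, had 51.2 ± 2.67 CPM in ADCY3∆AT and 47.6 ± 1.07 CPM in WT (log2 fold change 0.11 ± 0.05, SE, edgeR adjusted p = 0.525). Isca2, an iron-sulfur assembly factor, had 45.2 ± 0.613 CPM in ADCY3∆AT and 48.1 ± 0.146 CPM in WT (SD, n = 3 each; log2 fold change -0.09 ± 0.04, adjusted p = 0.519). The thiamine carrier Slc19a2 had -0.20 ± 0.10 (adjusted p = 0.534). Groups did not overlap for 1 higher gene, Lias (7.68% of all tested genes), and 1 lower gene, Isca2 (8.83%).

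Among 18 genes of pyruvate supply and of other pyruvate fates, 17 were tested, 9 had a positive and 8 a negative fold change, the median log2 value was 0.01 and 0 passed with either tool. Pklr, the liver pyruvate kinase, was at 0 in all 6 libraries. An unadjusted p under 0.05 was seen for 3 higher genes (background 5.23%) and 1 lower gene, Ldhb (5.78%). The 3 genes with the lowest p-values all had overlapping groups. Acly, ATP citrate lyase, had 570.4, 438.7 and 172.8 CPM in ADCY3∆AT and 193.2, 167.3 and 206.6 CPM in WT. ADCY3∆AT replicates 1 and 2 stood far above the rest, while replicate 3 lay within WT (log2 fold change 1.06 ± 0.35, SE, edgeR adjusted p = 0.338). Slc25a1, the mitochondrial citrate carrier, had 146.7, 117.1 and 94.9 CPM in ADCY3∆AT and 99.24, 88.52 and 96.29 CPM in WT (0.34 ± 0.14, adjusted p = 0.426). Me1, malic enzyme, had 302.4, 249.3 and 190.9 CPM in ADCY3∆AT and 207.0, 189.4 and 189.8 CPM in WT (0.34 ± 0.14, adjusted p = 0.436). In the same ADCY3∆AT libraries Pdk1 had 76.32, 67.96 and 57.48 CPM, so replicate 3 was the lowest ADCY3∆AT library for Pdk1 too. That was not particular to Pdk1. Replicate 3 was also the lowest for Mpc1, Mpc2, Pdha1, Pdhb and Dlat, but not for Pdk2, Pdk3, Pdk4 or Pdp1. A link between Pdk1 and these genes of pyruvate fates was not tested. Pcx, which carboxylates pyruvate, and Ldha, which reduces it to lactate, had log2 fold changes of -0.05 ± 0.06 and 0.03 ± 0.05.

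The factors known to act on the kinase genes were tested for all 21 listed genes. Of these, 9 had a positive and 12 a negative fold change, the median log2 value was -0.02, 0 passed in edgeR and 2 were called higher in DESeq2 (0.474% of all genes were). In edgeR 3 higher (background 5.23%) and 2 lower (5.78%) had an unadjusted p under 0.05. The DESeq2 calls were Foxo3, a forkhead factor, and Ppara, the receptor that fatty acids activate. Foxo3 had 28.69, 31.78 and 30.77 CPM in ADCY3∆AT and 21.18, 24.62 and 23.84 CPM in WT (log2 fold change 0.39 ± 0.07, SE, edgeR adjusted p = 0.158, DESeq2 adjusted p = 0.00655). Ppara had 334.7, 346.3 and 332.6 CPM in ADCY3∆AT and 291.7, 253.0 and 269.3 CPM in WT (0.32 ± 0.06, edgeR adjusted p = 0.158, DESeq2 adjusted p = 0.00214). Each ADCY3∆AT library was above each WT library for both genes. WT replicate 1, the highest WT library for Pdk4, was the highest for Ppara and the lowest for Foxo3. ADCY3∆AT replicate 2, the lowest ADCY3∆AT library for Pdk4, was the highest ADCY3∆AT library for both genes. A relation of Pdk4 to either gene was not tested. Esrrb, an orphan receptor present at 3.54 to 5.25 CPM in ADCY3∆AT and 5.01 to 7.99 CPM in WT, had -0.61 ± 0.21 (edgeR adjusted p = 0.362).

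Genes that share PPAR or FOXO regulation with Pdk4 had fold changes in both directions. All 25 listed genes were tested, 11 with a positive and 14 with a negative fold change and a median log2 value of -0.02, and 0 passed in edgeR, with 3 higher (background 5.23%) and 2 lower (5.78%) at an unadjusted p under 0.05. In DESeq2 1 was called higher, Txnip (0.474% of all genes were). Txnip, an inhibitor of glucose uptake, had 806.2, 652.7 and 587.3 CPM in ADCY3∆AT and 493.2, 527.4 and 550.5 CPM in WT, without overlap (log2 fold change 0.38 ± 0.11, SE, edgeR adjusted p = 0.288, DESeq2 adjusted p = 0.0251). Ucp3, a mitochondrial carrier, had 80.8, 79.04 and 87.01 CPM in ADCY3∆AT and 115.0, 99.71 and 91.85 CPM in WT, without overlap in the other direction (-0.31 ± 0.09, edgeR adjusted p = 0.263). Acot1, an acyl-CoA thioesterase, had -0.52 ± 0.18 (edgeR adjusted p = 0.344). For Pdk1, 19 of 20 listed HIF1 targets were tested, as 20 rows since Aldoa has 2, and 9 rows were positive and 11 negative, with a median log2 value of -0.02, 0 passing in edgeR or DESeq2, and 2 higher (background 5.23%) and 1 lower (5.78%) at an unadjusted p under 0.05. Pfkfb3, which raises glycolytic flux, had 428.9 ± 26.3 CPM in ADCY3∆AT and 515.6 ± 40.8 CPM in WT (SD, n = 3 each; -0.27 ± 0.07, edgeR adjusted p = 0.269), opposite in sign to Pdk1. Ankrd37 (0.82 ± 0.31, adjusted p = 0.387) and Ndrg1 (0.17 ± 0.06, adjusted p = 0.39) were positive, with overlapping groups.

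**Figure D4:**
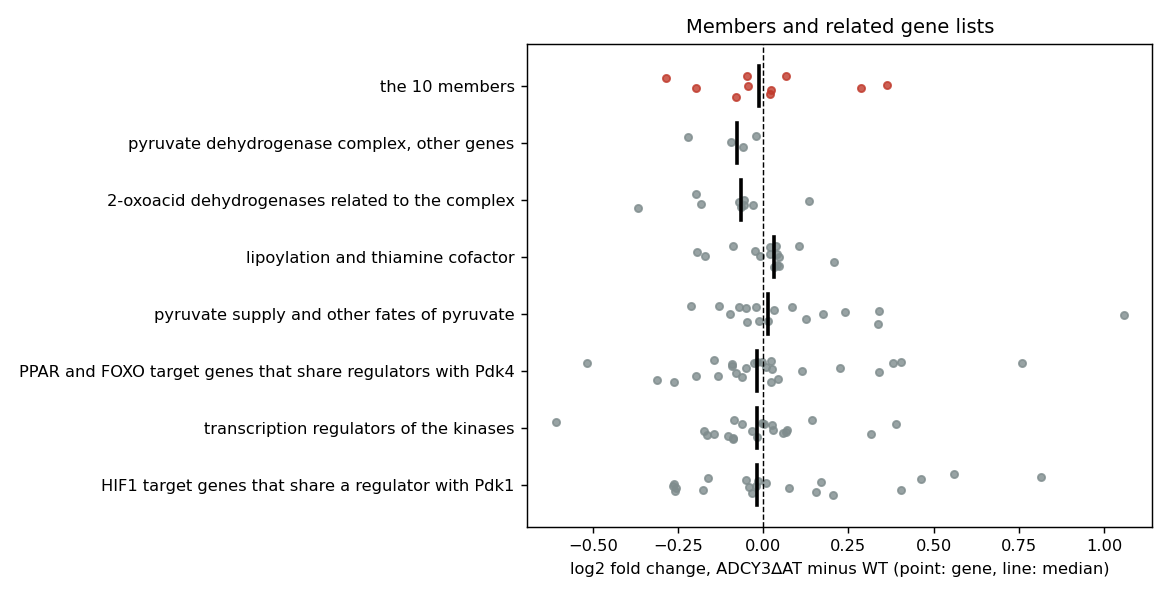
Log2 fold changes, ADCY3∆AT minus WT, of the members (red) and of the tested genes of each related list (grey), with the median as a black line. All medians lie between -0.08 and 0.03, and the point farthest to the right is Acly at 1.06.

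The genes whose profile over the 6 libraries lay nearest to each kinase were found by the root mean square difference of log2 CPM after subtracting each gene's mean, among 12193 other genes. For Pdk4, whose own values deviated by 0.263 from their mean on this measure, the nearest were Tiam1, a guanine exchange factor, at 0.0452 and Ccng2, cyclin G2, at 0.0626, which is also on the list of PPAR and FOXO targets. Tiam1 had 27.34, 25.3 and 25.42 CPM in ADCY3∆AT and 26.02, 18.39 and 19.42 CPM in WT, the same high WT replicate 1. For Pdk1 (0.184 from its own mean) they were Arrb1, beta-arrestin, at 0.0315 and Lgals4, a galectin, at 0.0323. Arrb1 had 49.71, 45.78 and 38.82 CPM in ADCY3∆AT and 36.87, 34.02 and 35.87 CPM in WT. Dynll2, a dynein light chain, at 0.067 and Gm9922 at 0.0858 were nearest to Pdk2 (0.261), and Gm49708 at 0.0526 and Nme6 at 0.0531 to Pdk3 (0.195). All these genes were picked for their likeness to a kinase over these same libraries, so shared highs and lows follow from the choice. Shared regulation was not tested.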

How the data were processed

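Total RNA was sequenced as paired-end NEBNext Ultra II libraries, per the labels' protocols. Values in the deposited table are estimated counts for each Ensembl gene without normalisation, and 31.6% of them are not whole. The submitters' processing notes name StringTie, Salmon, edgeR and GRCm38. Roles, versions, settings and the use of strand in counting were not given in the sources used here. Symbols, coordinates and lengths came from GENCODE M21 (GRCm38), which matched 54131 of 54385 rows; 0 value columns were left unmapped.

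Counts were rounded, filtered with filterByExpr (18114 genes), scaled with TMM factors and tested with edgeR 4.0.16 (R 4.3.3) by the quasi-likelihood F test on genotype, with Benjamini-Hochberg adjustment over all genes and a threshold of 0.05. Standard errors and 95% intervals are those implied by the F statistic. Log2 CPM used a prior count of 2. Every pair of libraries differed by more than sampling noise (chi-square per degree of freedom from 24.4 to 72.6). Alternatives included DESeq2 1.42.0 and limma voom 3.58.1. Genes named are the members, the 3 lowest p-values of each list, the 2 nearest profiles of each kinase (mean log2 CPM 1 or more) and Adcy3. Pcx, Ldha, Ldhb, Elovl3, Dio2, Adrb3, Ucp1, Mb and the genes at 0 were added after their values were seen. The promoters to print were also chosen after the values were seen. The members and lists were chosen with earlier results of these data known.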

Additional observations from a re-analysis of the deposited data

How the results depend on the processing

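No member was called under any of the 16 alternatives, whose adjusted p-values for members reached down to 0.0691 (Pdk1 without ADCY3∆AT replicate 3). The fold changes of Mpc2, Pdk1, Pdk2, Pdk3 and Pdk4 kept their sign throughout: on the log2 scale Pdk1 ranged from 0.19 to 0.39, Pdk4 from 0.26 to 0.56 and Pdk2 from -0.46 to -0.18. The other members changed sign when 1 library was left out: log2 fold changes ranged from -0.112 to 0.013 for Mpc1 (positive without ADCY3∆AT replicate 3), from -0.055 to 0.076 for Pdha1 and from -0.014 to 0.118 for Pdhb (negative without ADCY3∆AT replicate 1), from -0.063 to 0.079 for Dlat (negative without ADCY3∆AT replicate 1 and without WT replicate 1, at -0.016), and from -0.173 to 0.064 for Pdp1 (positive without WT replicate 3). The cause was not tested.

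Over all genes edgeR called 1, and the count was 230 with DESeq2 (18786 genes tested), 214 with no low-count filter, 2 with limma voom, with or without quality weights, and 2 with robust estimation. Leaving out 1 library gave 1 to 66 calls, with 66 without ADCY3∆AT replicate 3. The replicate block gave 3 calls, and no member among them. The labels give same-numbered samples a shared number and no stated pairing. Deviations of same-numbered libraries correlated at -0.086, -0.128 and -0.086, and none correlated best with its own number. Deviations from the mean of so few libraries are bound to balance out, so this check cannot decide whether the numbers mark pairs. With the longest transcript as length the share of Pdk4 was 93.6% in ADCY3∆AT and 91.2% in WT, against 95.4% in ADCY3∆AT and 93.6% in WT with the union of exons. Scaling by library totals alone moved the median gene by 0.02. A count of 3, taken as the floor, was 0.0547 to 0.0681 CPM, far below every member.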
